A study of Danio rerio with 15 samples.

Results

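The genes described here encode the DNA replication machinery of the zebrafish (Danio rerio), measured by RNA sequencing in heads of embryos at 2 days post-fertilization. They were taken by name from a fixed list of 34 symbols, and all 34 were found among the 23009 genes of the tables, 33 by their exact name and e2f1 after ignoring upper and lower case. The list was sorted into 6 groups by role, namely origin licensing (11 genes), the CMG helicase (5), polymerases and primase (6), the sliding clamp, its loader and flap processing (5), chromatin assembly (4) and entry into S phase (3). Origin licensing as counted here includes mcm10, whose product helps to activate the helicase. All 34 passed the filter on low values, so none was lost from the tests.

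Replication starts where the origin recognition complex, with Cdc6 and Cdt1, loads the Mcm2 to Mcm7 ring onto DNA, a step called licensing. Cdc45 and the GINS complex then join the ring to form the active CMG helicase, primase and the polymerases copy the opened strands, and the replication factor C complex loads the ring-shaped clamp PCNA that holds the polymerases on DNA. In the embryonic head these genes are known mainly from dividing progenitors of the brain and the eye, and roles given here are those known from yeast and mammals.

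There were 15 libraries, each from a pool of 20 heads of wild-type embryos reared at 28 °C, in 3 groups of 5. The first group was injected with a guide RNA against ncapg2, which encodes a subunit of condensin II, together with the nuclease Cas9, which usually leaves a mosaic of edited and unedited cells that each pool averages over. The second received that guide RNA without Cas9, and the third the injection dye phenol red. The 15 libraries include no group with Cas9 but no guide RNA. Effects of Cas9 itself and of editing ncapg2 therefore cannot be told apart. The design addresses what loss of ncapg2 does to the head transcriptome. The guide RNA is numbered 1 in the treatment labels and 3 in the titles.

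Whole reads recovered from the deposited values totalled 41.58 to 48.51 M (M, mega) in guide RNA plus Cas9 libraries, 39.79 to 49.3 M in guide RNA libraries and 34.97 to 46.46 M in phenol red libraries. The targeted gene ncapg2 (ENSDARG00000060023) had normalized counts of 423, 407, 373, 505 and 432 with guide RNA plus Cas9, against 988, 979, 901, 809 and 885 with guide RNA and 834, 868, 945, 754 and 879.7 with phenol red. Every Cas9 library was below every other library, at 46.9% of the guide RNA mean and 50.02% of the phenol red mean (two-sided exact permutation p = 0.0079 for each, the smallest that 252 regroupings allow, and p = 0.246 between guide RNA and phenol red). Genes of head regions summed to 21777 to 26057 normalized counts with guide RNA plus Cas9, 18724 to 24072 with guide RNA and 16400.3 to 24359 with phenol red. Posterior hox genes, 7 found of 14 listed and all of them hoxa or hoxd genes, summed to 45.5 to 159, 46.8 to 156 and 39.0 to 156 in the same order.

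Libraries from different groups varied together. From 21868 genes other than the replication genes, the 15 libraries fell into 5 sets of 1 library per group, called A to E here: S11, S6 and S1 (A), S12, S7 and S2 (B), S13, S8 and S3 (C), S14, S9 and S4 (D), and S15, S10 and S5 (E), each in the order guide RNA plus Cas9, guide RNA, phenol red. The sets were the grouping, of 14400 possible, with the highest summed correlation of deviations from the group means. The median correlation was 0.51 within sets (0.13 to 0.78) and -0.12 between other libraries of different groups (at most 0.36). As the sets were chosen by these correlations, the contrast is no test of them. Each set held the libraries at the same place in the column order of their groups, although that order was not used to find the sets. The labels do not say what a set is. Set A had the highest posterior hox and the highest yolk and liver levels of each group. Its phenol red library S1 stood apart for many replication genes and for genes of other lists, as described with the results that rest on it. Values are given in set order, A to E, within each group.

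No replication gene was called in any comparison. With limma at an adjusted p under 0.05, 0 of 34 were called for guide RNA plus Cas9 over guide RNA (0.00463% of the genes tested were called), 0 of 34 for guide RNA plus Cas9 against phenol red (0.00463%) and 0 of 34 for guide RNA against phenol red (0%). DESeq2 on the recovered reads also called 0 of 34 in each (0.00463%, 0.00927% and 0% of the genes tested), as did edgeR (0.00463%, 0.00463% and 0%). At an unadjusted p under 0.05, limma gave 0 genes higher and 0 lower for guide RNA plus Cas9 over guide RNA, where 0.352% of all genes were higher and 0.565% lower at that level. It gave 3 higher and 0 lower for guide RNA plus Cas9 against phenol red (1.46% and 0.839% of all genes), and 4 higher and 0 lower for guide RNA against phenol red (0.518% and 0.518%). At that level DESeq2 gave 0, 3 and 5 genes higher and 0 lower in these comparisons, where 0.347%, 1.75% and 0.505% of all genes were higher and 0.491%, 0.876% and 0.5% lower. edgeR gave 0, 3 and 3 higher and 0 lower, against 0.324%, 1.33% and 0.472% of all genes higher and 0.621%, 1.13% and 0.537% lower. For no replication gene were the 5 libraries of a group all above or all below the 5 of another, which was so for 0.0926% to 0.218% of all genes in a given direction.

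The fold changes of the replication genes were small. In each comparison the 95% interval of all 34 lay within a 1.5-fold change either way, against 85.6%, 84.9% and 84.6% of all genes tested. The shares of all genes include genes near the filter of 10, while no replication gene had a value under 165. Within 1.3-fold, a width chosen after seeing the data, it lay for 34 genes in guide RNA plus Cas9 over guide RNA, for 28 in guide RNA plus Cas9 against phenol red and for 24 in guide RNA against phenol red (72.7%, 68.6% and 69.3% of all genes). The median log2 fold change of the 34 was -0.03 between guide RNA plus Cas9 and guide RNA, 0.08 between guide RNA plus Cas9 and phenol red, and 0.14 between guide RNA and phenol red, while that of all genes was 0.00, 0.00 and 0.01. The last 2 comparisons share the phenol red libraries. In bulk heads, fewer cells in S phase and less of these RNAs per cell cannot be told apart.

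**Figure D1:**
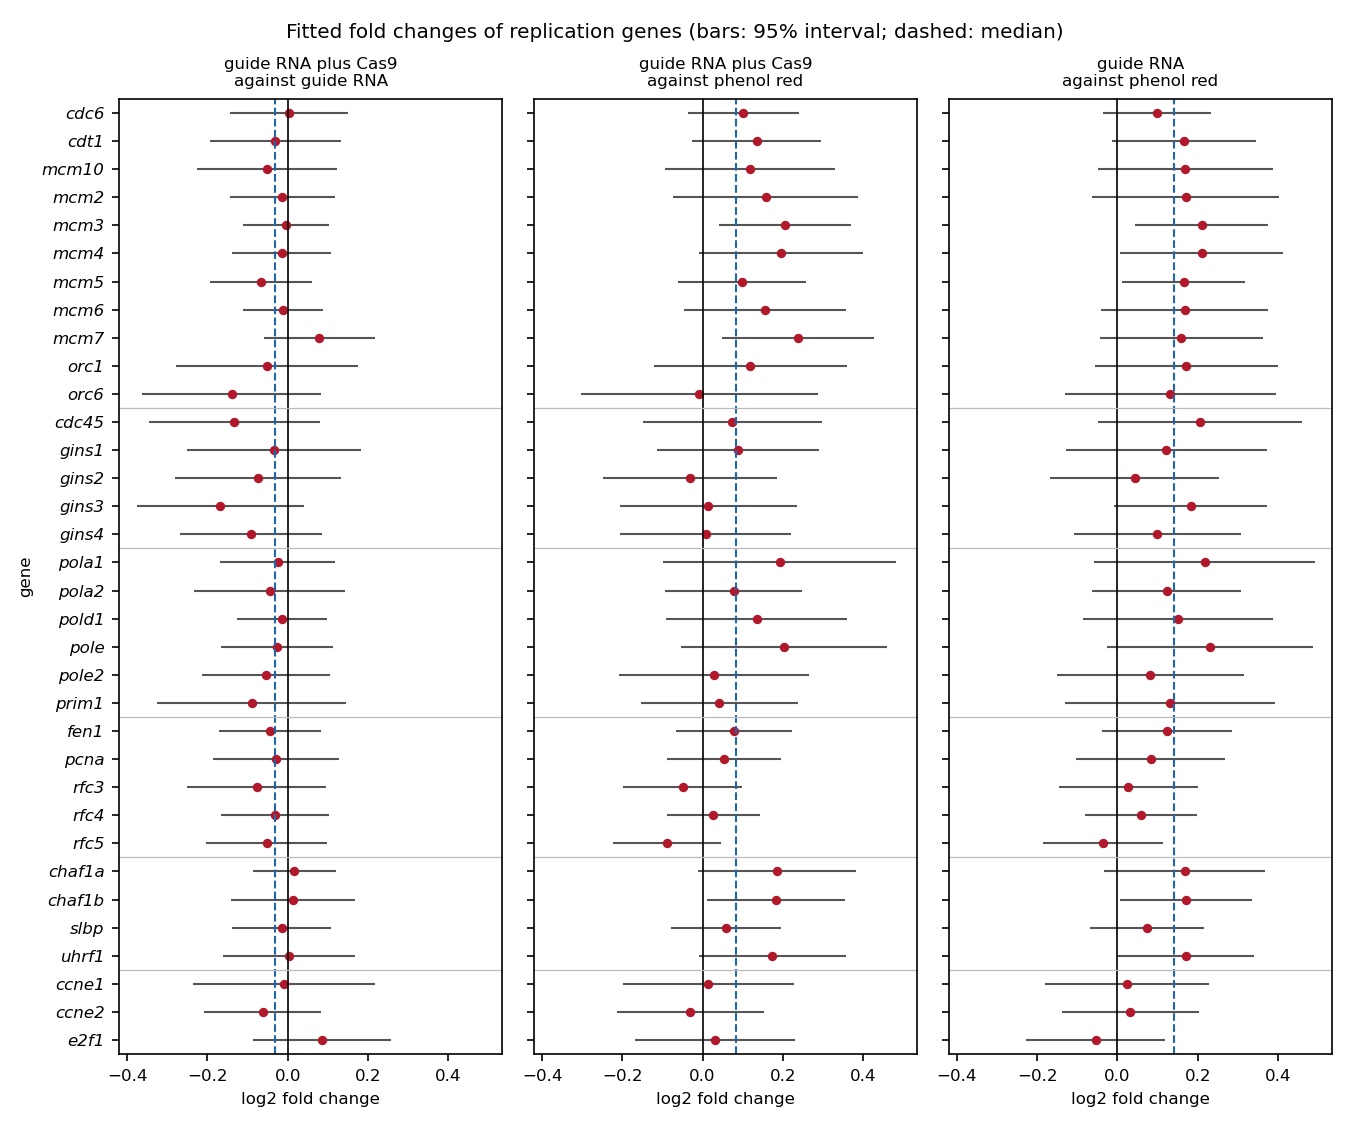
Fitted log2 fold change of each replication gene (points) with its 95% interval (bars) in the 3 comparisons, genes ordered by step, with the dashed line at the median of the 34 genes. Points lie on both sides of 0 in the left panel, where the median is -0.03, and mostly to the right of 0 against phenol red, where the medians are 0.08 and 0.14.

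Signs leaned one way in each comparison. Fold changes were above 0 for 6 of 34 genes in guide RNA plus Cas9 over guide RNA (50.9% of all genes), for 29 of 34 in guide RNA plus Cas9 against phenol red (52.2%) and for 32 of 34 in guide RNA against phenol red (54.7%). The phenol red mean was the lowest of the 3 group means for 28 genes (39.0% of all genes), and the guide RNA mean was the highest for 27 (29.9%). The order guide RNA, guide RNA plus Cas9, phenol red from high to low was held by 23 genes. These differences between neighbouring means are mostly within the spread between pools, and the 34 genes are not independent of each other.

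Among the licensing genes, mcm3 and mcm7 had the smallest p-values. Mcm3 and Mcm7 are subunits of the ring that becomes the motor of the helicase. mcm3 (ENSDARG00000024204) had 3055, 3129.6, 2941, 2811 and 2900.2 normalized counts with guide RNA plus Cas9, 2991, 3087, 2943, 2824 and 3034 with guide RNA, and 2130.3, 2866, 2662, 2604 and 2659.8 with phenol red. The Cas9 and guide RNA libraries covered the same range, while 4 of the 5 phenol red libraries were below every one of them and S2 was within their range. The means were 2967 ± 126, 2976 ± 100.4 and 2584 ± 273 (SD, n = 5 each), in that order of groups. The log2 fold change was -0.00 ± 0.05 (SE) for guide RNA plus Cas9 over guide RNA, 0.21 ± 0.08 for guide RNA plus Cas9 against phenol red (limma unadjusted p = 0.0181, adjusted p = 1.0) and 0.21 ± 0.08 for guide RNA against phenol red (unadjusted p = 0.0169, adjusted p = 1.0). Without phenol red library S1, the lowest, the last 2 were 0.14 and 0.14.

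For mcm7 (ENSDARG00000101180), guide RNA plus Cas9 libraries had 4736, 5276, 5463, 5017 and 5014, guide RNA libraries 4669, 5266, 4920.1, 5032 and 4295, and phenol red libraries 3429.7, 4649, 4442, 4839 and 4389. Phenol red S4 was above Cas9 S11, so these groups overlapped, and S1 was the lowest of all 15. The log2 fold change was 0.08 ± 0.06 for guide RNA plus Cas9 over guide RNA, 0.24 ± 0.09 for guide RNA plus Cas9 against phenol red (limma unadjusted p = 0.0178) and 0.16 ± 0.09 for guide RNA against phenol red. Without S1 the values against phenol red were 0.15 and 0.08, and without S10 that against guide RNA was 0.04.

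Another ring subunit gene, mcm5 (ENSDARG00000019507), had 3612, 3655, 3343, 3259 and 3137 with guide RNA plus Cas9, 3758, 3656, 3447, 3325 and 3605 with guide RNA, and 2998, 3691, 3067, 2939 and 3214 with phenol red. Phenol red S2 was among the highest of the 15 and the other 4 phenol red libraries were at 3214 or less, where 1 library of the other groups lay. Its log2 fold changes were -0.07 ± 0.06, 0.10 ± 0.07 and 0.16 ± 0.07 for guide RNA plus Cas9 over guide RNA, guide RNA plus Cas9 against phenol red and guide RNA against phenol red (limma unadjusted p = 0.0381 for the last). The first was -0.04 without S15, and the middle one 0.15 without S2.

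mcm2 (ENSDARG00000102798) had 4357, 4913, 4422, 4226 and 4204 with guide RNA plus Cas9, 4066, 4695, 4523, 4379 and 4658 with guide RNA, and 2967, 4789, 4157, 4049 and 4086 with phenol red. Here S1 alone lay far below, and phenol red S2 was the second highest of all 15. The log2 fold changes were -0.01 ± 0.06, 0.16 ± 0.11 and 0.17 ± 0.11, and without S1 those against phenol red were 0.05 and 0.07.

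Of the remaining licensing genes, mcm4, whose product is another ring subunit, was at 0.21 ± 0.09 for guide RNA against phenol red (limma unadjusted p = 0.0433) and at 0.20 ± 0.09 for guide RNA plus Cas9 against phenol red (unadjusted p = 0.0592). For mcm4, S1 was the lowest of all 15 libraries, at 72.6% of the mean of the other 4 phenol red libraries. Without S1, mcm4 was not among the genes with an unadjusted limma p under 0.05. The loaders cdc6 and cdt1, the origin recognition subunits orc1 and orc6, the ring subunit mcm6 and mcm10, whose product helps to activate the helicase, had unadjusted p above 0.05 in every comparison. Means in guide RNA plus Cas9, guide RNA and phenol red libraries were 587, 586 and 547 for cdc6, 371, 380.0 and 338 for cdt1, 445, 460.2 and 409 for orc1, and 242, 265 and 245 for orc6. Over the 11 genes of the licensing group, mcm10 included, the median log2 fold change was -0.02, 0.13 and 0.17 in the 3 comparisons. Of these genes, 2, 10 and 11 were above 0. The copies mcm3l, with means of 38.1, 40.0 and 38.9, and mcm6l, with means of 10.5, 11.2 and 11.8, were separate genes in the tables. How reads shared with mcm3 and mcm6 were counted is unknown here.

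**Figure D2:**
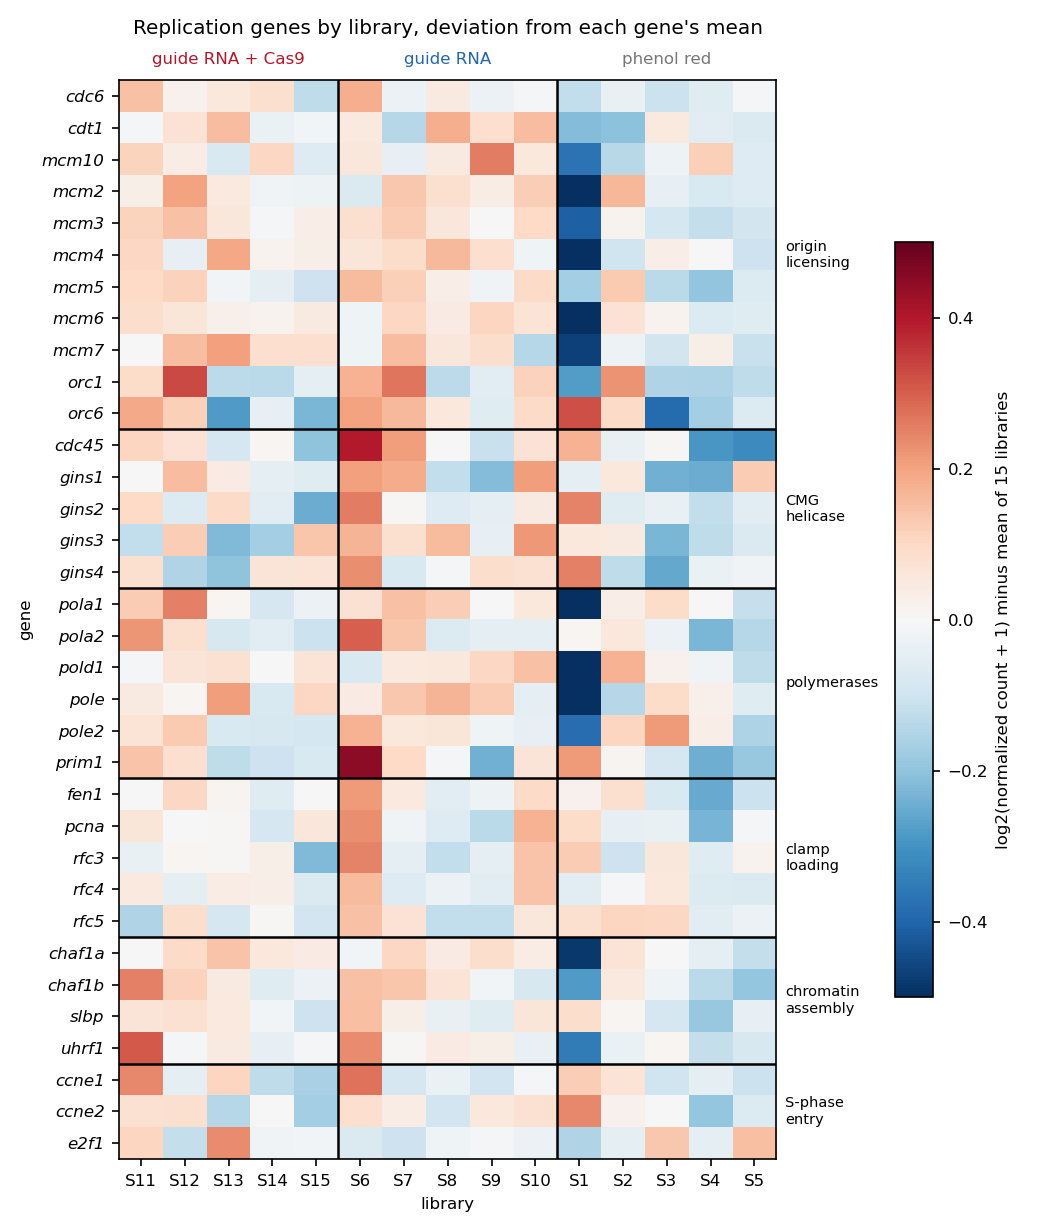
Deviation of log2(normalized count + 1) from the gene's mean over 15 libraries, with genes in rows by step and libraries in columns by group; red is above and blue below the mean, and colours end at 0.5 either way. The column of phenol red library S1 is dark blue in most licensing genes and in pola1, pold1, pole and chaf1a, and red in orc6, gins2, gins4, cdc45, prim1 and ccne2.

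The CMG helicase genes did not follow the ring genes in library S1. Cdc45 and the 4 GINS proteins bind the loaded ring and turn it into the working helicase. cdc45 (ENSDARG00000043720) had 422, 413, 369.9, 395 and 341 with guide RNA plus Cas9, 517, 454, 393, 363 and 413 with guide RNA, and 443, 382, 394, 321 and 314 with phenol red. In each group the set A library was the highest and a library of set D or E the lowest, and the groups overlapped over most of their range. The log2 fold changes were -0.13 ± 0.10, 0.07 ± 0.10 and 0.21 ± 0.12 for guide RNA plus Cas9 over guide RNA, guide RNA plus Cas9 against phenol red and guide RNA against phenol red, and the last 2 were 0.14 and 0.27 without S1. Guide RNA library S6, the highest of the 15, also moved these values, to -0.06 for guide RNA plus Cas9 over guide RNA and 0.14 for guide RNA against phenol red without it. For guide RNA plus Cas9 against phenol red, leaving out each library in turn gave 0.02 to 0.14.

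gins3 (ENSDARG00000038847) had the lowest fold change of the 34 for guide RNA plus Cas9 over guide RNA, at -0.17 ± 0.10 (limma unadjusted p = 0.106). Its normalized counts were 178, 212, 166, 173 and 214 with guide RNA plus Cas9, 219, 206, 217, 189 and 226 with guide RNA, and 201, 200.4, 166, 178 and 185 with phenol red. The Cas9 libraries split, with S12 and S15 among the guide RNA libraries and the other 3 below all of those. Against phenol red, gins3 was at 0.01 ± 0.10 with guide RNA plus Cas9 and at 0.18 ± 0.09 with guide RNA alone (unadjusted p = 0.0584). All 5 genes of this step had a fold change below 0 for guide RNA plus Cas9 over guide RNA, with a median of -0.09, against medians of 0.01 and 0.12 in the comparisons with phenol red, and none reached an unadjusted p under 0.05.

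The polymerase genes pole and pola1 encode the catalytic subunits of polymerase epsilon, which copies the leading strand, and of polymerase alpha, which extends the primers. pole (ENSDARG00000058533) had 1330.4, 1301, 1489.8, 1225 and 1388 normalized counts with guide RNA plus Cas9, 1328, 1417, 1453, 1409.8 and 1249 with guide RNA, and 829.9, 1169, 1375, 1313 and 1238 with phenol red. Its fold change for guide RNA against phenol red, 0.23 ± 0.12, was the highest of the 34 in that comparison (limma unadjusted p = 0.0743), and those of guide RNA plus Cas9 were -0.03 ± 0.06 against guide RNA and 0.20 ± 0.12 against phenol red. S1 and S2 were below all other libraries, the remaining phenol red libraries were within the range of the other groups, and without S1 the values against phenol red were 0.11 for guide RNA and 0.08 for guide RNA plus Cas9.

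pola1 (ENSDARG00000045308) had 2233, 2435, 2054, 1925 and 2003 with guide RNA plus Cas9, 2155, 2263, 2225, 2044 and 2119 with guide RNA, and 1262, 2092, 2178, 2041 and 1886 with phenol red. S1 was at 61.6% of the mean of the other 4 phenol red libraries, the lowest such share among the 34 genes, and those 4 overlapped with both other groups. The log2 fold changes were -0.03 ± 0.07, 0.19 ± 0.13 and 0.22 ± 0.13, and without S1 those against phenol red were 0.05 and 0.08. The accessory subunits pola2 and pole2, the polymerase delta subunit pold1 and the primase prim1 had fold changes of -0.09 to -0.02 for guide RNA plus Cas9 over guide RNA, 0.03 to 0.13 for guide RNA plus Cas9 against phenol red and 0.08 to 0.15 for guide RNA against phenol red. Over the 6 genes the medians were -0.04, 0.11 and 0.14, with 0, 6 and 6 genes above 0.

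**Figure D3:**
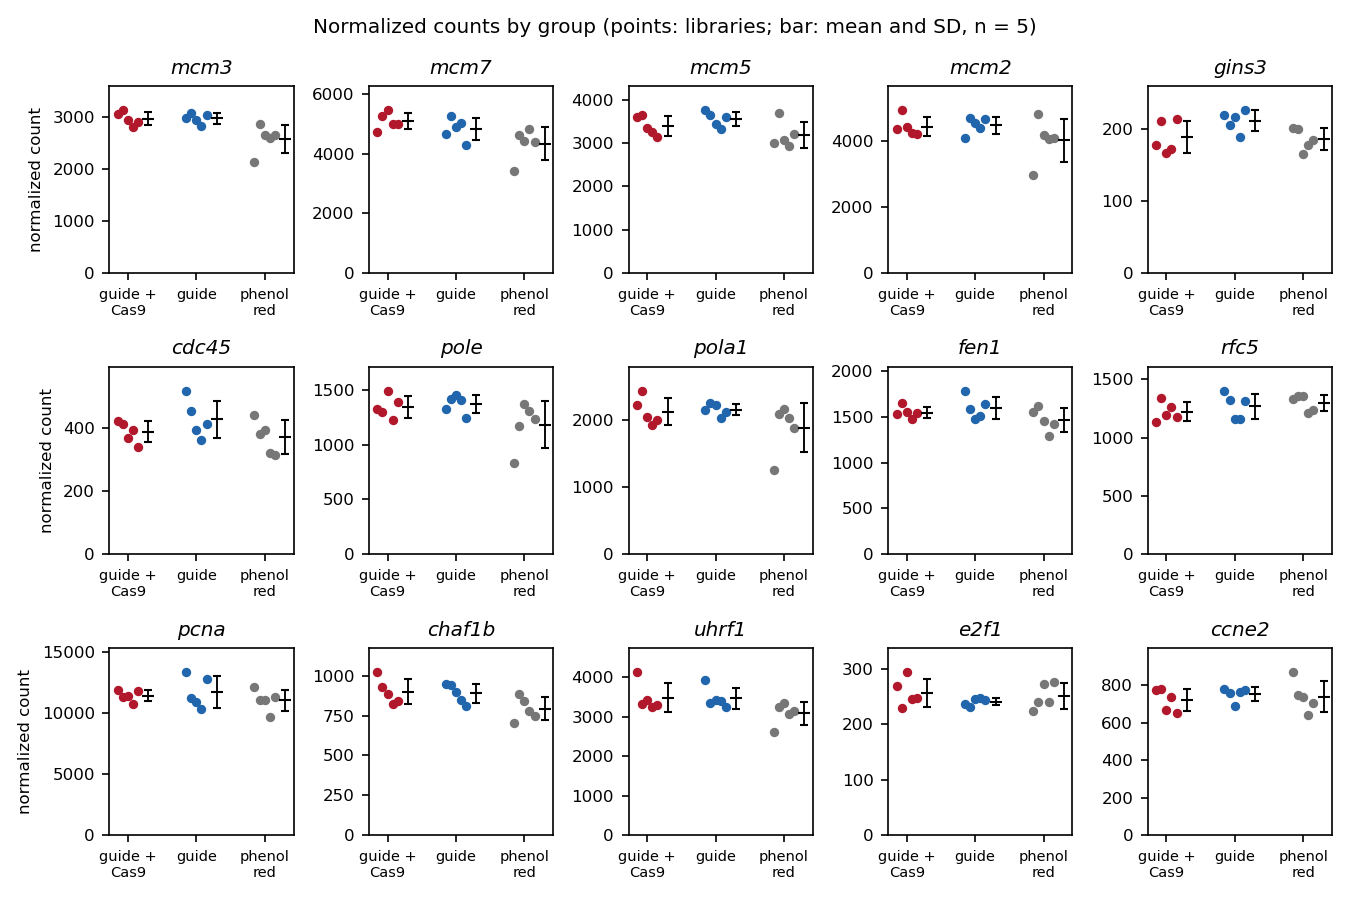
Normalized counts per library (points) with the group mean and SD (n = 5) for the 15 genes whose values are given library by library; each panel has its own axis from 0. In mcm3 the guide RNA plus Cas9 and guide RNA points lie between 2811 and 3129.6, and the lowest phenol red point, S1, is at 2130.3.

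Genes of the clamp, its loader and flap processing had log2 fold changes between -0.09 and 0.12 over the 3 comparisons. pcna (ENSDARG00000054155), the sliding clamp and a common marker of cycling cells, had 11856, 11351, 11408, 10727 and 11802 with guide RNA plus Cas9, 13327, 11226, 10868, 10331 and 12814 with guide RNA, and 12119.5, 11027, 11079, 9659 and 11289 with phenol red. Its highest libraries were guide RNA S6 and S10 and its lowest phenol red S4, with all groups overlapping. The log2 fold changes were -0.03 ± 0.07, 0.05 ± 0.07 and 0.08 ± 0.09, and the 95% interval for guide RNA plus Cas9 over guide RNA ran from -0.19 to 0.13. Without S6 the first was 0.02 and the last 0.03, and without S4 the values against phenol red were 0.01 and 0.04.

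fen1 (ENSDARG00000011404), which encodes the nuclease that trims flaps on the lagging strand, had 1531, 1647, 1549, 1473 and 1539 with guide RNA plus Cas9, 1779, 1587, 1479, 1508 and 1639 with guide RNA, and 1559, 1622, 1455, 1287 and 1424 with phenol red. The groups overlapped, with S6 high and S4 low, and the fold changes were -0.04 ± 0.06, 0.08 ± 0.07 and 0.12 ± 0.07. Without S6 the first was -0.0047, and without S4 those against phenol red were 0.03 and 0.08. rfc5 (ENSDARG00000035634), a clamp loader subunit, had 1136, 1338, 1189, 1267 and 1180.5 with guide RNA plus Cas9, 1396, 1326, 1156, 1156 and 1311 with guide RNA, and 1334, 1359.6, 1355, 1212 and 1236 with phenol red. It was the only replication gene whose phenol red mean was above the means of both other groups. Its fold change was -0.09 ± 0.06 for guide RNA plus Cas9 against phenol red and -0.04 ± 0.07 for guide RNA against phenol red. With the loader subunits rfc3 and rfc4 included, the medians of this step were -0.04, 0.03 and 0.06, with 0, 3 and 4 of 5 genes above 0.

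In the chromatin assembly group, chaf1b (ENSDARG00000056473) encodes a subunit of CAF-1, which places histones on newly copied DNA. It had 1021, 928, 885, 822 and 840.1 with guide RNA plus Cas9, 949, 943, 899, 849 and 812 with guide RNA, and 704, 885, 844, 779 and 748 with phenol red. The means were 899 ± 79.6, 890.4 ± 59.5 and 792 ± 72.9 (SD, n = 5 each), and phenol red S2 and S3 lay within the range of the other groups while S1, S4 and S5 were below it. The fold changes were 0.01 ± 0.07, 0.18 ± 0.08 (limma unadjusted p = 0.039) and 0.17 ± 0.08 (unadjusted p = 0.042), and without S1 those against phenol red were 0.14 and 0.13.

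uhrf1 (ENSDARG00000103409), whose product brings the maintenance DNA methyltransferase to newly copied DNA, had 4124, 3312, 3434, 3238 and 3308 with guide RNA plus Cas9, 3928, 3339.8, 3431, 3402 and 3249.8 with guide RNA, and 2610.4, 3255, 3352, 3066 and 3153 with phenol red. Set A was the highest library with guide RNA plus Cas9 and with guide RNA but the lowest with phenol red. The fold changes were 0.00 ± 0.08, 0.17 ± 0.08 (limma unadjusted p = 0.0609) and 0.17 ± 0.08 (unadjusted p = 0.0501), and with set A left out, a choice made after seeing the data, those against phenol red were 0.05 and 0.07; without S1 alone they were 0.11 and 0.11. With chaf1a, the other CAF-1 subunit, and slbp, which binds histone mRNA, the medians of the 4 genes were 0.01, 0.18 and 0.17.

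The genes of S-phase entry had group means that lay within the spread of the pools. e2f1 (ENSDARG00000103868), a transcription factor of replication genes, had 268, 229, 293, 245 and 246 with guide RNA plus Cas9, 236, 231, 245, 248 and 244 with guide RNA, and 224, 240.0, 273, 241 and 276 with phenol red. The guide RNA libraries were within 231 to 248 and the other groups spread to both sides of them. The fold changes were 0.09 ± 0.08, the highest of the 34 for guide RNA plus Cas9 over guide RNA, 0.03 ± 0.09 and -0.05 ± 0.08, and the first was 0.04 without S13.

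ccne2 (ENSDARG00000098529), a cyclin that activates Cdk2 before S phase, had 777, 778, 667, 738 and 654 with guide RNA plus Cas9, 781, 756, 690.0, 764 and 777 with guide RNA, and 869, 748, 736, 644 and 703 with phenol red. S1 was the highest and S4 the lowest of all 15, both in the same group. The fold changes were -0.06 ± 0.07, -0.03 ± 0.08 and 0.03 ± 0.08, and without S1 those against phenol red were 0.03 and 0.09. Over e2f1, ccne2 and the related cyclin gene ccne1 the medians were -0.01, 0.01 and 0.02.

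The phenol red library S1, singled out after its values were seen, placed the steps in different directions. It was below the other 4 phenol red libraries for 17 of 34 genes (32.6% of all genes) and above them for 11 (29.9%). The genes below were 9 of 11 in origin licensing, 4 of 6 polymerase genes and 3 of 4 in chromatin assembly, against 0 of 5 in the CMG helicase and 0 of 5 in clamp loading. S1 was above the others for 4 of 5 CMG helicase genes. Its mean log2 deviation from the 15-library means was -0.34 in polymerases, -0.29 in origin licensing and -0.26 in chromatin assembly. The same measure was 0.14 in the CMG helicase, 0.07 in S-phase entry and 0.05 in clamp loading. Step medians against phenol red include S1 and are not given without it, so they do not rank the steps. As a share of the mean of the other 4, S1 was at 65.1% for pole, 68.8% for pold1, 69.5% for mcm2 and 71.1% for mcm6, but at 136% for orc6, 128% for gins4, 126% for prim1 and 126% for cdc45. In the same measure for pole, pold1, mcm2 and mcm6, the other set A libraries were low to a smaller degree or not at all. S6 was at 96.1%, 89.3%, 89.1% and 93.1% of the other guide RNA libraries, and S11 at 98.5%, 96.1%, 98.1% and 103.7% of the other Cas9 libraries. S6 was the lowest guide RNA library for pold1, mcm2 and mcm6, and S11 the lowest Cas9 library for pold1. For orc6, gins4, prim1 and cdc45, both S6 and S11 were above those means.

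Genes of other lists also differed in S1, so this was not particular to the replication genes. It was below the other phenol red libraries for 29 of 54 further genes of the pathway, described below, and above them for 11. The counts below and above were 13 and 7 of 22 mitosis markers, 11 and 3 of 19 neural progenitor genes, and 10 and 2 of 17 neuronal genes. All 14 yolk and liver genes and all 5 posterior hox genes that passed the filter were higher in S1 than in the other phenol red libraries, 8 of 11 erythroid genes were higher, and 11 of 12 genes of head regions were lower. Yolk and liver genes summed to between 7605 and 84139 normalized counts in phenol red libraries, against 911 to 63460 with guide RNA plus Cas9 and 7496 to 67451 with guide RNA. The part of these markers in the replication values was not tested. Without S1, the median log2 fold change of the 34 genes was 0.08 for guide RNA plus Cas9 against phenol red, with 30 genes above 0, and 0.11 for guide RNA against phenol red, with 31 above 0. The genes higher at an unadjusted limma p under 0.05 were then mcm3 and mcm7 in guide RNA plus Cas9 against phenol red (0.968% of all genes were higher at that level), and mcm3, gins3 and cdc45 in guide RNA against phenol red (0.639%).

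**Figure D4:**
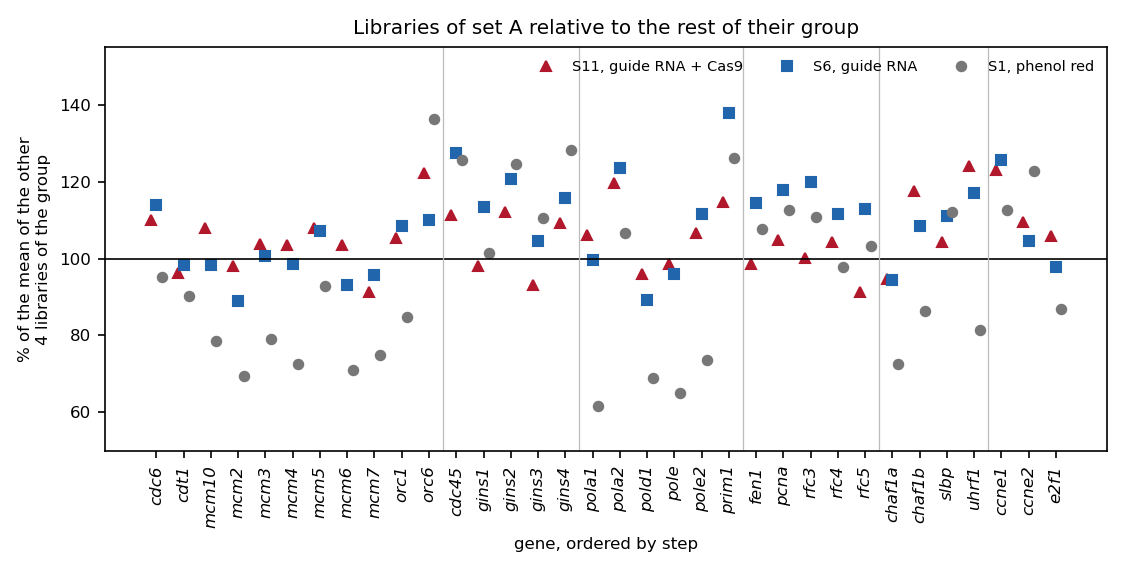
Level of each replication gene in the 3 libraries of set A, as a percentage of the mean of the other 4 libraries of the same group, with genes ordered by step and grey lines between steps. Phenol red library S1 (grey circles) is at 61.6% for pola1 and 136% for orc6, while S11 and S6 (red triangles, blue squares) lie near or above 100% for most genes.

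Compared set by set, which takes 1 library of each group, the differences varied with the set. For guide RNA plus Cas9 minus guide RNA, the median log2 difference over the 34 genes was -0.05, 0.01, 0.00, -0.03 and -0.12 in sets A to E, so its sign was not the same throughout. For guide RNA plus Cas9 minus phenol red it was 0.23, 0.05, 0.06, 0.08 and 0.07, and for guide RNA minus phenol red 0.28, 0.04, 0.05, 0.11 and 0.13. The difference from phenol red was largest in set A, which holds S1, and above 0 in the other 4 sets. The genes higher in all 5 sets numbered 9 for guide RNA plus Cas9 over phenol red (26.5% of the 34, against 4.18% of all genes), namely mcm2, mcm3, mcm4, mcm7, cdt1, orc1, chaf1a, chaf1b and uhrf1. For guide RNA over phenol red there were 15 (44.12%, against 4.36% of all genes). For guide RNA plus Cas9 minus guide RNA, the genes lower in all 5 sets were pola2, gins4 and mcm5 (8.82%, against 3.29%).

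**Figure D5:**
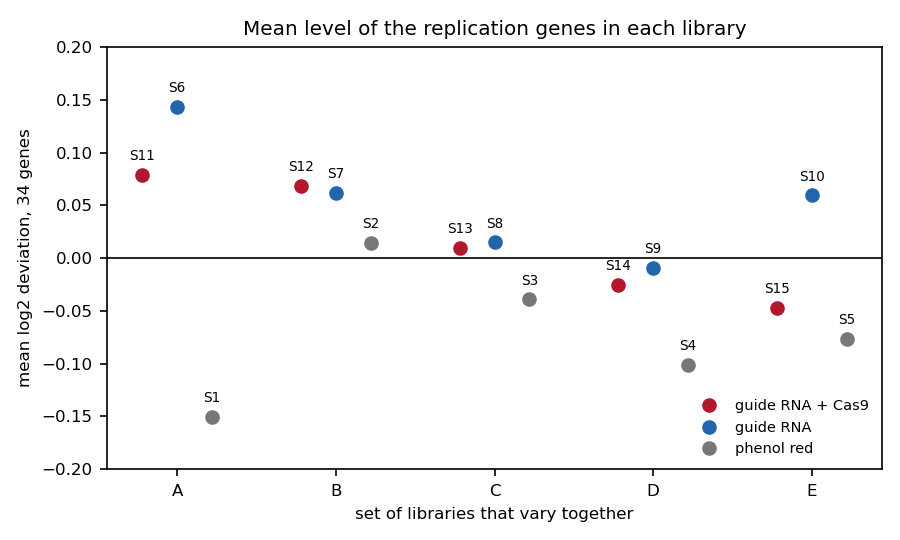
Mean over the 34 genes of the log2 deviation from each gene's mean (vertical axis), by library set (horizontal axis) and group (colour). The phenol red library is the lowest of its set in each of the 5 sets, from -0.15 in S1 to 0.01 in S2, and the guide RNA plus Cas9 libraries run from 0.08 in S11 to -0.05 in S15.

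With the sets as a block in limma, 0 of the 34 genes were called in each comparison (0.0139%, 0.00927% and 0.0185% of all genes were called). More of the 34 than without the block reached an unadjusted p under 0.05, but only in the comparisons with phenol red. The counts were 0 for guide RNA plus Cas9 over guide RNA (2.15% of all genes higher and 2.4% lower), 5 higher for guide RNA plus Cas9 against phenol red (6.2% of all genes higher and 2.92% lower) and 17 higher for guide RNA against phenol red (4.96% higher and 2.75% lower), with 0 of the 34 lower. The smallest adjusted p was 0.985 for gins3, 0.495 for mcm7 and 0.304 for mcm3 in these comparisons. Because the sets were found from the values, these counts are a description.

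Groups held a median of 20.0% of the sum of squares of the 34 genes over 15 libraries, against 6.85% over all genes, and sets held 39.7% against 58.4%. Part of the sum of squares falls between groups even without a group difference, and a larger share of sets leaves less for groups. These shares are therefore a description. Over the 11 other lists the median group share ran from 2.09% for erythroid genes to 19.4% for lens genes, with 10.6% for the further genes of the pathway given next and 14.3% for mitosis markers. Sets held 59.8% in the lens genes, 53.6% in the pathway genes and 35.8% in the mitosis markers. The largest group share was that of mcm3, at 52.9%. The coefficient of variation within a group had a median of 6.91% with guide RNA plus Cas9, 7.27% with guide RNA and 10.9% with phenol red. The median correlation of deviations from the group means was 0.38 over 99 gene pairs of the same step (-0.71 to 0.93). It was 0.16 over 462 pairs of different steps (-0.82 to 0.96). Origin licensing, with 11 genes, gave the most pairs of the same step, and S1 was included. These correlations are a description over the same 15 libraries.

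Further genes of the pathway, 54 found of 56 listed, gave a similar picture with smaller medians. They include the remaining origin recognition, polymerase and clamp loader subunits, the single-strand binding proteins, checkpoint mediators and E2F factors. In limma 0 were called in each comparison, and 0, 4 and 5 of the 54 were higher and 0 lower at an unadjusted p under 0.05, where 0.352%, 1.46% and 0.518% of all genes were higher. Fold changes were above 0 for 23, 43 and 43 of the 54, with medians of -0.01, 0.05 and 0.06. The 34 genes had 6, 29 and 32 above 0, and all genes 50.9%, 52.2% and 54.7%. The lean below 0 between guide RNA plus Cas9 and guide RNA was thus weaker in the 54. For guide RNA plus Cas9 over guide RNA the smallest p-values were those of the origin recognition subunit orc2 at 0.26 ± 0.12, mcm9 at -0.15 ± 0.07 and the E2F partner tfdp2 at 0.10 ± 0.05. Against phenol red, with guide RNA plus Cas9 they were those of the repressor e2f7 at 0.24 ± 0.08, the firing factor topbp1 at 0.20 ± 0.07 and the helicase gene mcm8 at 0.20 ± 0.08, and with guide RNA those of topbp1 at 0.24 ± 0.08, mcm9 at 0.24 ± 0.09 and the helicase gene recql4 at 0.23 ± 0.09.

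Mitosis and progenitor markers are given for comparison. The 22 mitosis genes had median log2 fold changes of 0.05 for guide RNA plus Cas9 over guide RNA, 0.09 for guide RNA plus Cas9 against phenol red and 0.05 for guide RNA against phenol red, with 18, 19 and 18 above 0 and 0 called by limma. At an unadjusted p under 0.05, 0, 3 and 1 of the 22 were higher, beside the same shares of all genes. The medians of 19 neural progenitor genes were 0.01, 0.03 and 0.00, and those of 17 neuronal genes 0.02, 0.04 and 0.02.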

How the data were processed

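RNA sequencing measured 15 libraries of embryo heads in 3 groups of 5, called biological replicates in the series design, and p-values therefore rest on the spread between pools. Per the labels, poly(A) RNA was selected on oligo-dT beads for stranded libraries, 5 of which shared a lane. Reads were single-end, 50 bp long, at a stated depth of about 66 M (M, mega). Which library ran in which lane is unknown here, and so lanes and groups cannot be told apart. Per the submitters' processing notes, the software was STAR, HTSeq, DESeq2, Trim Galore, cutadapt and bcl2fastq, and versions, genome build, annotation and strand setting were not given in the sources used here. Without these, reads of overlapping or near-identical genes are uncertain.

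The authors deposited 3 tables, each of 2 groups, holding gene signal values normalized by 1 size factor per library, called normalized counts here. Beside these stand the authors' own log2 fold changes, test statistics (unit score) and p-values, as deposited, which were read but not used for the results. The tables shared 23009 genes, 493 without a name, and libraries held the same values in each table. Columns were assigned to groups by the tables that held them. They carry no replicate number, so libraries are named by their headings, S1 to S15. Within a library all values were whole multiples of 1 step within 0.001 of a read (100% of values), which gave whole reads.

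limma 3.58.1 (trend, robust) in R 4.3.3 was fitted to log2(value + 1) of the 2 groups compared, for all genes with 10 or more in at least 5 libraries (21580 to 21601 genes). Fold changes are on that scale. Adjusted p is Benjamini-Hochberg over all genes tested, with a threshold of 0.05, and no set test was run. On the recovered reads, edgeR 4.0.16 (its quasi-likelihood test) and DESeq2 1.42.0 were alternatives. Each called 1 gene for guide RNA plus Cas9 over guide RNA and 0 for guide RNA against phenol red, and DESeq2 called 2 and edgeR 1 for guide RNA plus Cas9 against phenol red. Only the limma fit of guide RNA plus Cas9 over guide RNA was tried on simulated counts, which held no library sets. The other steps were not tested in that way. Levels are not compared between genes, as transcript lengths were not used here.

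The 34 genes and all lists were chosen with earlier results of these data known. Values per library are given, in each step, for the 2 genes with the smallest unadjusted limma p in any comparison (3 in origin licensing), plus pcna, mcm2 and e2f1, and for the pathway list the 3 smallest per comparison are named. Genes at the end of a range, or that single libraries set apart, were chosen after their values were seen. Of the 213 symbols of 11 other lists, 195 were found in the tables. Promoter motifs were planned but not analysed here.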

Additional observations from a re-analysis of the deposited data

Results flagged for a closer look

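In 105 groups of 5 libraries (34 genes and ncapg2 in 3 groups), 8 had a library whose gap to the nearest of the others took up most of the group's range, where chance gives about 1 in 20. The largest number came from set A. In phenol red library S1, mcm6 was at 2730.2 normalized counts, below the other 4 at 3687 to 4055, and gins2 was at 233, above the others at 180.3 to 191. In guide RNA library S6, ccne1 was at 237 against 183 to 195 in the others, and uhrf1 at 3928 against 3249.8 to 3431. In guide RNA plus Cas9 library S11, uhrf1 was at 4124 against 3238 to 3434.

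Outside set A, rfc3 was at 652 in guide RNA plus Cas9 library S15, below the others at 741 to 777. ccne2 was at 690.03 in guide RNA library S8, below 756 to 781, and orc1 was at 509 in phenol red library S2, above 358 to 398. No cause was tested.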

How the results depend on the processing

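The count of 0 replication genes called held in each comparison under every setting run: TMM scaling, DESeq2, edgeR, a filter of 50 or none, a pseudocount of 0.5 or 10, moderation that was not robust, a fit of all 3 groups, the block of library sets, set A left out (chosen after seeing the data) and each library left out. Under these settings only 0 to 4 of all genes tested were called. A count of 0 among 34 genes was thus likely in advance and says little about these genes. No paired analysis was possible by the replicate numbers of the titles, because the columns carry none. The library sets, found from the values, were fitted as a block in their place. With that block, 3, 2 and 4 of all genes tested were called in the 3 comparisons, and none of these genes. All 3 groups in 1 fit gave 0, 6 and 7 genes higher at an unadjusted p under 0.05, where 0.338%, 1.59% and 0.653% of all genes were higher.

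The median over the 34 genes for guide RNA plus Cas9 over guide RNA ranged from -0.053 without S12 to -0.013 without S14; it was -0.020 without S6, -0.020 without S15, -0.048 without S8 and -0.049 without S9. For guide RNA plus Cas9 against phenol red it ranged from 0.044 without S4 to 0.113 without S15, and for guide RNA against phenol red from 0.107 without S1 to 0.159 without S2. With set A left out the medians were -0.03, 0.06 and 0.09, and 0, 2 and 1 genes were higher at an unadjusted p under 0.05 (0.38%, 1.09% and 0.514% of all genes). With single libraries left out, 2 to 6 genes were higher at that level for guide RNA plus Cas9 against phenol red (0.514% to 3.35% of all genes) and 1 to 8 for guide RNA against phenol red (0.361% to 0.931%). Of the 45 fold changes of the 15 genes given by library, 37 moved by over 1.5 times or changed sign when some single library was left out.

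With set A left out, signs turned for guide RNA plus Cas9 over guide RNA in rfc5 (0.0085), chaf1b (-0.0111), uhrf1 (-0.0141) and pcna (0.0053), and against phenol red in e2f1 (-0.0253) and ccne2 (0.0024). Leaving out single libraries turned the sign of 11 fold changes, all within 0.0322 of 0 with every library. In the comparison of guide RNA plus Cas9 with guide RNA these ranged from -0.0239 to 0.0148 for mcm3, -0.0642 to 0.00648 for pole, -0.0747 to 0.0100 for pola1, -0.0347 to 0.0435 for chaf1b, -0.0595 to 0.0483 for uhrf1, -0.073 to 0.0188 for pcna and -0.0516 to 0.0054 for mcm2. Against phenol red, with Cas9, they ranged from -0.0325 to 0.0574 for gins3, -0.0177 to 0.0712 for e2f1 and -0.0788 to 0.0293 for ccne2, and with guide RNA alone from -0.0162 to 0.0919 for ccne2. The fold change of ncapg2 stayed between -1.15 and -1.05 against guide RNA when libraries were left out. Causes were not tested, and the spread between pools limits precision.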
